A study of Rattus norvegicus with 12 samples.

Results

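The nuclear genes for the subunits of the 5 oxidative phosphorylation complexes were followed in rat primary hepatocytes exposed to triclosan, to diclosan or to the compound 1-chloro-3-(4-chlorophenoxy) benzene, here CCPB. Members were taken by gene symbol, by a rule that uses no expression value but was set with earlier results of these data known. The rule took symbols beginning with Ndufa, Ndufb, Ndufc, Ndufs or Ndufv, the genes Sdha to Sdhd, and symbols beginning with Uqcr, Cox4 to Cox8 or Atp5. Assembly factors and pseudogenes were left out. The array named 80 such genes, and 77 of them had a probe well above background throughout the 3 arrays of some group, out of 20359 genes or transcripts that passed the same filter. Each of the 77 was in fact well above background on all 12 arrays. They comprised 32 genes of complex I, 4 of complex II, 8 of complex III, 16 of complex IV and 17 of complex V. The 3 genes that did not pass were Ndufs4, above background on 3 of 12 arrays, and Cox8c and Ndufa4l2, above background on 0 of 12.

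Cryopreserved cells of male Sprague Dawley rats were kept in culture for 24 h before exposure. Control cultures received DMSO, and the 3 treated groups received 30 µM of triclosan, diclosan or CCPB for 24 h. Each of the 4 groups had 3 arrays, which the design text calls independent experiments. The labels do not say whether these used different animals or lots of cells, so the p-values below measure the spread between these cultures only. Triclosan and diclosan are chlorinated diphenyl ethers with a phenolic hydroxyl group, diclosan having 1 chlorine atom fewer. CCPB is a chlorinated diphenyl ether without the hydroxyl group. The age of the animals and a dose for DMSO were not in the labels.

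In the inner mitochondrial membrane, complexes I and II pass electrons from NADH and succinate to ubiquinone, complex III passes them on to cytochrome c, and complex IV reduces oxygen. Complexes I, III and IV pump protons outward, and complex V, the ATP synthase, uses their return to make ATP. Hepatocytes depend on this chain for urea synthesis, gluconeogenesis and fatty acid oxidation, and triclosan is known as an uncoupler, an agent that carries protons back across the membrane without ATP synthesis. The transcripts measured here report on none of these fluxes, and the subunits encoded by mitochondrial DNA are outside the set.

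All values are log2 signal with each array's 75th percentile set to 0, so that a value of 1 is 2-fold above that percentile. The level of a gene is compared between arrays only, because probes differ in brightness for reasons other than abundance. Differences were tested with limma across all 20359 genes, with Benjamini-Hochberg adjustment, and a difference was called when the adjusted p was under 0.05. In these bulk cultures, fewer cells of a type and less RNA per cell cannot be told apart.

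The arrays lay on 2 slides, and this matters for the CCPB group. All DMSO and triclosan arrays and diclosan replicates 1 and 2 shared slide 1, whereas diclosan replicate 3 was on slide 2 with all CCPB arrays. Diclosan replicate 3 stood apart from its group for a number of members. As the single array that separates slide from compound, it cannot tell an effect of the slide apart from a deviation of this 1 culture. The counts of calls, and the differences of called genes that are named, are also given with slide as a fixed term in the model (the slide block), as are differences not called where that term moved them most. All arrays were scanned on 1 day, no spot was saturated, and the share of probes well above background was 51.6% to 55.5%.

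Levels of the complexes were nearly flat over the 4 groups. The median of the 77 members, each measured from its own DMSO mean, lay between -0.011 and 0.017 on the DMSO arrays, -0.026 and 0.033 with triclosan, -0.00024 and 0.031 with diclosan, and 0.032 and 0.051 with CCPB. Complex II had the clearest split, and it separated the slides: its median was 0.087 to 0.090 on the CCPB arrays and 0.090 on diclosan replicate 3, against -0.026 to 0.023 on the 8 arrays of slide 1. Complex I medians on the CCPB arrays (0.022 to 0.042) overlapped those of triclosan and diclosan arrays on slide 1.

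**Figure D1:**
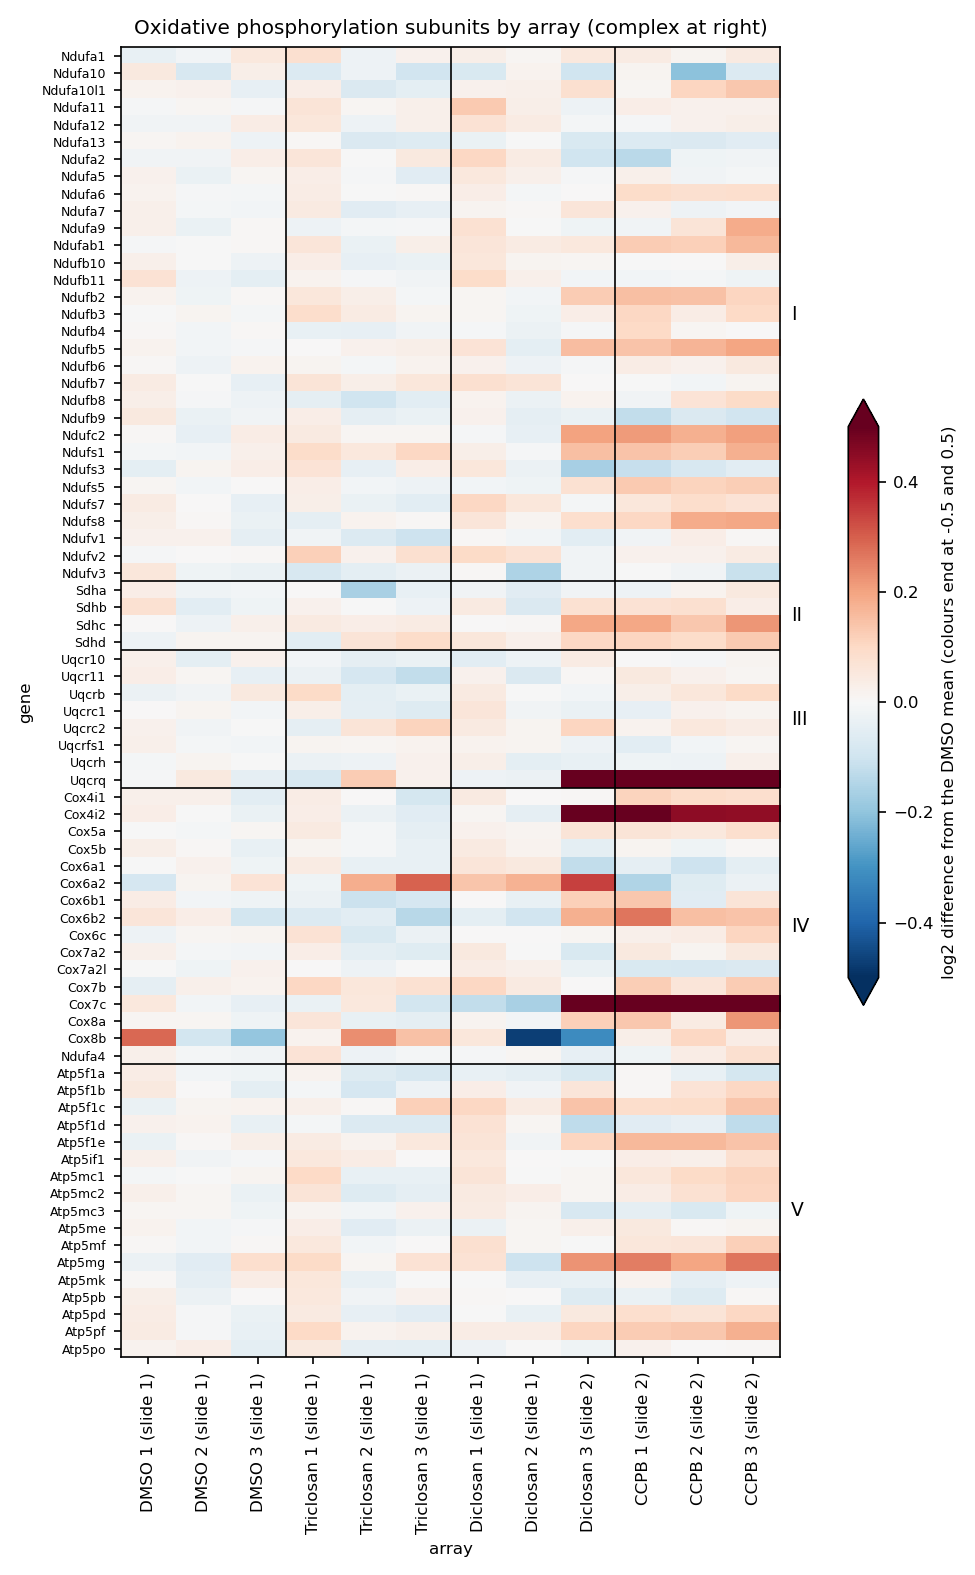
Each line is 1 subunit gene, ordered by complex (roman numerals at right), and each column is 1 array with its slide. Colour gives the log2 difference from the gene's DMSO mean, with colours ending at -0.5 and 0.5. Most cells are pale, and the dark red cells of Uqcrq, Cox4i2 and Cox7c fill the 3 CCPB columns and diclosan replicate 3, the 4 arrays of slide 2.

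Triclosan, known as an uncoupler, left no subunit gene past the threshold. With triclosan 0 of 77 members were called higher or lower than with DMSO, where 0.0639% of all genes were called, and 0 members had an unadjusted p under 0.05, where 11.6% of all genes did (limma). Adding the slide block gave 0 calls, where 0.226% of all genes were called, and 3 had an unadjusted p under 0.05 (Cox7b, Ndufs1 and Ndufv2, all higher), where 14.2% of all genes did. The median difference was -0.0036, against -0.0056 over all genes, with 35 members above 0 and 42 below. The precision bounds what could have been missed: for 72 of 77 members the 95% interval lay within a 1.2-fold change in either direction, and for 77 of 77 within 1.5-fold. The spread behind each interval was pooled over all 4 groups. The interval of Cox7c ran from -0.58 to 0.53. Its standard deviation was 0.049 with DMSO and 0.072 with triclosan, against 0.66 with diclosan, whose replicate 3 was on slide 2.

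Differences with triclosan ran from -0.088 for Cox6b2 to 0.15 for Cox6a2. In complex I, Ndufs1, which carries iron-sulfur clusters, read 4.05, 4.04 and 4.08 with DMSO and 4.15, 4.11 and 4.16 with triclosan. The triclosan arrays were all above the DMSO arrays, and the difference was 0.083 (limma adjusted p = 0.490, or 0.271 with the slide block). Ndufv2, an iron-sulfur subunit of the NADH-binding module, differed by 0.074 and the accessory subunit Ndufb8 by -0.067. In complex II, Sdha, the flavoprotein that oxidises succinate, differed by -0.066 (interval -0.17 to 0.034). In complex III the largest difference was that of Uqcr11, a small accessory subunit, at -0.079 (limma adjusted p = 0.475). In complex IV, Cox7b, a small nuclear-encoded subunit, read 5.95, 6.02 and 6.01 with DMSO and 6.09, 6.05 and 6.07 with triclosan. Its difference of 0.079 had the smallest adjusted p of all members for triclosan, 0.472. In complex V the smallest adjusted p was that of Atp5pf, a subunit of the peripheral stalk, which differed by 0.049 (limma adjusted p = 0.6765). Atp5f1b, the catalytic beta subunit, differed by -0.039 (interval -0.13 to 0.053) and Atp5if1, the inhibitor of ATP hydrolysis, by 0.031 (interval -0.041 to 0.10).

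Diclosan likewise left no subunit gene past the threshold. With diclosan 0 of 77 members were called, where 0.00982% of all genes were called, and 2 members had an unadjusted p under 0.05, where 10.6% of all genes did (limma). These were Cox6a2, the heart and muscle isoform of a complex IV subunit, at 0.22 (adjusted p = 0.401), and Atp5f1c, the gamma subunit of the rotor of ATP synthase, at 0.097 (adjusted p = 0.451). Cox6a2 read 2.38, 2.48 and 2.54 with DMSO and 2.60, 2.64 and 2.81 with diclosan, so the groups did not overlap. The median over members was 0.018, against 0.0045 over all genes, and for 72 of 77 members the interval lay within a 1.2-fold change. The differences ran from -0.24 for Cox8b to 0.25 for Uqcrq, and the Uqcrq value came from diclosan replicate 3 alone (0.25, against -0.57 and -0.58 in replicates 1 and 2). For this comparison, leaving out replicate 3 and adding the slide block give the same fit, since that array alone sets the slide term. In this fit 0 members were called, where 0.0147% of all genes were. Ndufv2, at 0.084, alone had an unadjusted p under 0.05, where 9.93% of all genes did. With that term Cox6a2 differed by 0.16, Atp5f1c by 0.073 and Uqcrq by -0.028.

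**Figure D2:**
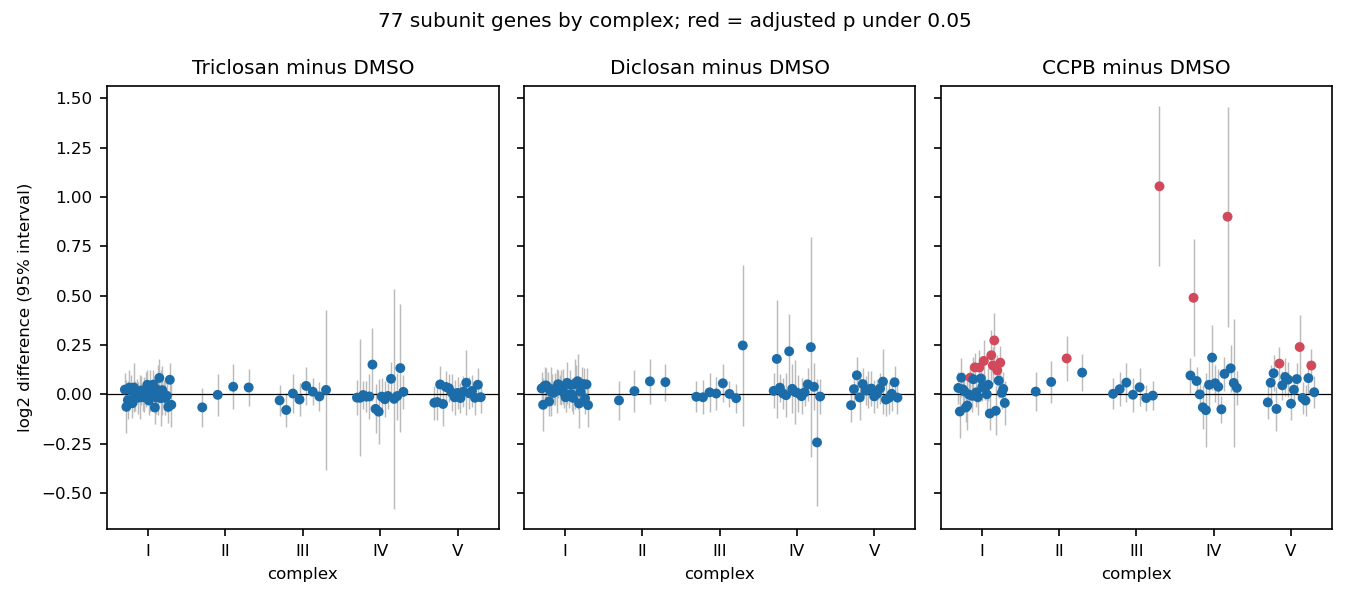
Each point is the log2 difference of 1 subunit gene from DMSO, grouped by complex, in 3 panels for triclosan, diclosan and CCPB, and grey lines are 95% intervals (3 arrays per group). Red points have an adjusted p under 0.05: 0 with triclosan, 0 with diclosan and 16 with CCPB.

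CCPB gave 16 calls, all higher than DMSO, most of them small, and none was called once slide was in the model. The 16 of 77 members (20.8%) stood beside 14.3% of all genes called higher with CCPB and 28.3% called in either direction, and 0 members were called lower, where 14% of all genes were. Of the 16, 9 belong to complex I (among them Ndufa6, Ndufab1, Ndufb2, Ndufb5, Ndufc2, Ndufs1, Ndufs5 and Ndufs8), 1 to complex II (Sdhc), 1 to complex III (Uqcrq), 2 to complex IV (Cox4i2 and Cox7c) and 3 to complex V (Atp5f1e, Atp5mg and Atp5pf). The difference was under 0.3 in 13 of them. Over all 77 members the median was 0.046, against 0.0054 over all genes, with 56 above 0. All 3 CCPB arrays lay above all 3 DMSO arrays for 33 members and below them for 6, where the same held for 26.1% and 24% of all genes.

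With slide in the model, 0 of the 77 were called with CCPB (limma), where 3.46% of all genes were, and 5 had an unadjusted p under 0.05, where 18% of all genes did. The median difference of the 77 became 0.036, and intervals became wider, with a median half-width of 0.15 in place of 0.087. For the 16 the median fell from 0.165 to 0.019, 12 remained above 0, and 4 (Atp5pf, Ndufa6, Ndufab1 and Ndufs8) kept over 0.5 of their difference. The slide term itself was called in 6 members (7.79%, where 5.83% of all genes were called, 4.54% higher), all higher on slide 2, among them Cox4i2, Cox7c, Ndufc2, Sdhc and Uqcrq. Diclosan replicate 3 lay above diclosan replicates 1 and 2 in 14 of the 16 (87.5%), in 42.9% of all members, in 64.2% of all genes called higher with CCPB and in 38.2% of all genes tested. The count of 16 also rested on each array: with DMSO replicate 1, 2 or 3 left out it was 5, 5 and 7, and with CCPB replicate 1, 2 or 3 left out it was 7, 8 and 5.

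Uqcrq, a small membrane-spanning subunit of complex III, had the largest difference of any member. It read -0.55, -0.50 and -0.59 with DMSO, -0.63, -0.42 and -0.53 with triclosan, -0.57, -0.58 and 0.25 with diclosan, and 0.51, 0.51 and 0.50 with CCPB. The CCPB arrays were above all others, diclosan replicate 3 lay between them and the rest, and the 8 arrays of slide 1 stayed together. CCPB arrays were 2.08-fold above DMSO arrays for Uqcrq, a difference of 1.05 with an interval of 0.65 to 1.46 (limma adjusted p = 0.00299). With the slide block the difference was 0.23 (interval 0.022 to 0.43, adjusted p = 0.226), and the slide term was 0.83. The other 7 members of complex III were flat: their CCPB differences ran from -0.018 for Uqcrfs1, the Rieske iron-sulfur protein, to 0.059 for Uqcrb. Their DMSO means were 4.04 to 7.91, where that of Uqcrq, measured by 1 kept probe, was -0.55. Whether this probe reports the main Uqcrq transcript was not tested. The complex III median with CCPB, 0.014, was -0.013 under median centring and -0.00092 under quantile normalization.

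In complex IV, Cox7c and Cox4i2 turned sign with the slide block. Cox7c, a small subunit found in all tissues, read 1.39, 1.32 and 1.30 with DMSO, 1.31, 1.39 and 1.25 with triclosan, 1.22, 1.18 and 2.34 with diclosan, and 2.38, 2.17 and 2.17 with CCPB. The only diclosan array on slide 2 lay within the range of the CCPB arrays. The CCPB difference was 0.90 (limma adjusted p = 0.0249), and -0.24 with the slide block (adjusted p = 0.294). Cox7c also had 1 kept probe, with a DMSO mean of 1.34, where Cox4i1 had 7.775 and Cox6b1 0.40. What sets these levels was not tested. Cox4i2, the isoform of subunit 4 known from lung and from low oxygen, read 1.06, 1.02 and 0.99 with DMSO, 1.03, 0.98 and 1.60 with diclosan, and 1.60, 1.47 and 1.46 with CCPB. Its difference was 0.49 (limma adjusted p = 0.0231), and -0.10 with the slide block. Cox7b, whose slide 2 diclosan array was the lowest of its group, differed by 0.10 (limma adjusted p = 0.0676), and by 0.18 with the slide block, which had the smallest adjusted p of any member there, 0.169.

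Complex I held 9 of the 16 calls (28.1% of its 32 genes, where 14.3% of all genes were called higher), and 0 were called with the slide block. Ndufc2, an accessory subunit of the membrane arm, read 5.71, 5.66 and 5.74 with DMSO, 5.75, 5.71 and 5.71 with triclosan, 5.70, 5.66 and 5.90 with diclosan, and 5.92, 5.88 and 5.91 with CCPB. The 4 arrays of slide 2 were above all 8 of slide 1, and the CCPB difference of 0.20 (limma adjusted p = 0.0284) was -0.026 with the slide block. Ndufs8, an iron-sulfur subunit on the electron path to ubiquinone, read 2.92, 2.90 and 2.86 with DMSO, 2.96, 2.91 and 2.98 with diclosan, and 3.0, 3.08 and 3.09 with CCPB. The CCPB arrays were above all others, diclosan replicate 3 lay midway between diclosan replicate 1 and the lowest CCPB array, and the difference of 0.16 (limma adjusted p = 0.0121) was 0.11 with the slide block (adjusted p = 0.401). The lowest CCPB difference of any member was that of the accessory subunit Ndufb9, -0.097 (interval -0.18 to -0.015, limma adjusted p = 0.0751).

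Ndufab1, the mitochondrial acyl carrier protein, needs both of its probes. The brighter probe read 5.15, 5.15 and 5.16 with DMSO, 5.21, 5.19 and 5.21 with diclosan, and 5.28, 5.27 and 5.32 with CCPB, a difference of 0.14 (limma adjusted p = 0.0127) that was 0.14 with the slide block (adjusted p = 0.255). The dimmer probe read -3.94, -3.86 and -4.39 with DMSO and -5.02, -5.26 and -4.97 with CCPB, and the triclosan and diclosan arrays lay between them. It was well above background on 3 of 3 DMSO arrays but on 1 of 3 CCPB arrays, so its CCPB level is close to a bound and no size is given for its difference. Among the 19 members with several kept probes 6 had a call for the dimmer probe with CCPB, Atp5mc2, Atp5mk, Cox5a and Cox5b higher and Ndufab1 and Ndufv3 lower, and Ndufab1 was the 1 gene whose brighter probe was called the other way.

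Complex II, succinate dehydrogenase, links the chain to the tricarboxylic acid cycle, and all 4 of its genes were measured. The membrane anchor Sdhc read 4.53, 4.50 and 4.55 with DMSO, 4.57, 4.56 and 4.56 with triclosan, 4.52, 4.53 and 4.72 with diclosan, and 4.72, 4.66 and 4.74 with CCPB. Slide 2 arrays were all above slide 1 arrays, and the CCPB difference of 0.18 (limma adjusted p = 0.0265) was -0.0098 with the slide block. The other anchor, Sdhd, differed by 0.11 with CCPB (adjusted p = 0.0749), the iron-sulfur subunit Sdhb by 0.063 and the flavoprotein Sdha by 0.014. These became 0.050, -0.028 and -0.0052 with the slide block.

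Complex V had 3 calls with CCPB among 17 genes, all higher (17.6%, near the 14.3% of all genes called higher). Atp5f1e, the epsilon subunit of the rotor, read 7.27, 7.31 and 7.34 with DMSO, 7.37, 7.29 and 7.42 with diclosan, and 7.47, 7.47 and 7.45 with CCPB. The CCPB arrays were above all others, and the difference was 0.16 (limma adjusted p = 0.0133) or 0.072 with the slide block. These values come from the brighter of its 2 kept probes. The dimmer probe differed by 0.018 (interval -0.059 to 0.096, limma adjusted p = 0.721) and was not called. For triclosan minus CCPB that dimmer probe differed by 0.014, also not called. Atp5pf differed by 0.15 (0.077 with the slide block), and Atp5mg, a small membrane subunit, by 0.24 (0.0017 with the slide block). The catalytic subunits were not called: Atp5f1a differed by -0.041 (interval -0.13 to 0.045) and Atp5f1b by 0.059 (interval -0.033 to 0.15). The 3 genes for the identical c subunit of the proton-driven ring, Atp5mc1, Atp5mc2 and Atp5mc3, differed by 0.088, 0.075 and -0.047, and Atp5if1 by 0.046, with none called by its brightest probe. Atp5mc2 had 4 kept probes, and 1 dimmer probe was called higher at 0.24 (interval 0.15 to 0.33, limma adjusted p = 0.0023). Atp5f1a differed by -0.0058, Atp5f1b by 0.0062 and Atp5mc3 by 0.061 once slide was in the model.

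**Figure D3:**
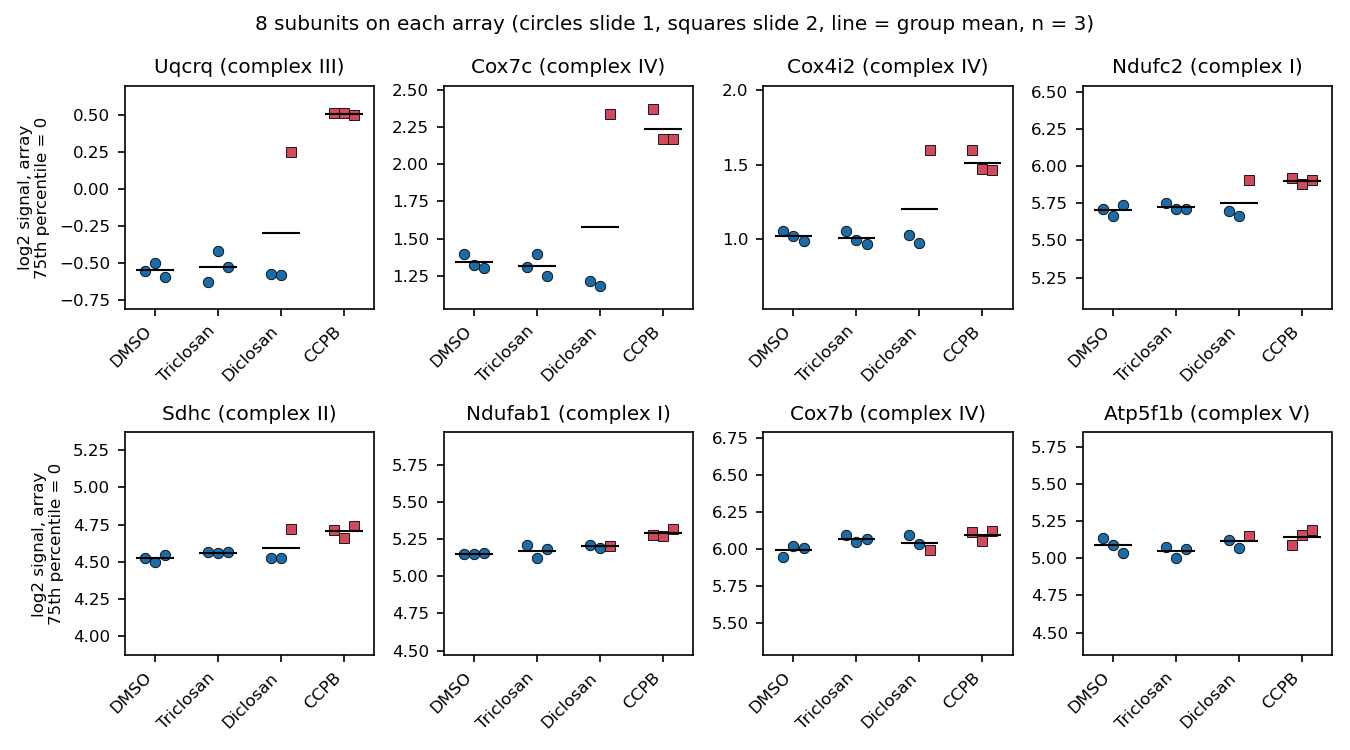
The log2 signal of 8 subunit genes on each array (array 75th percentile = 0), with circles for slide 1, squares for slide 2 and a line at each group mean (n = 3). For Uqcrq, Cox7c, Cox4i2, Ndufc2 and Sdhc the diclosan square lies with or toward the CCPB squares, for Ndufab1 it lies between the diclosan circles, and for Cox7b below them. For Atp5f1b it lies within the CCPB squares, whose range overlaps the DMSO and diclosan circles.

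**Figure D4:**
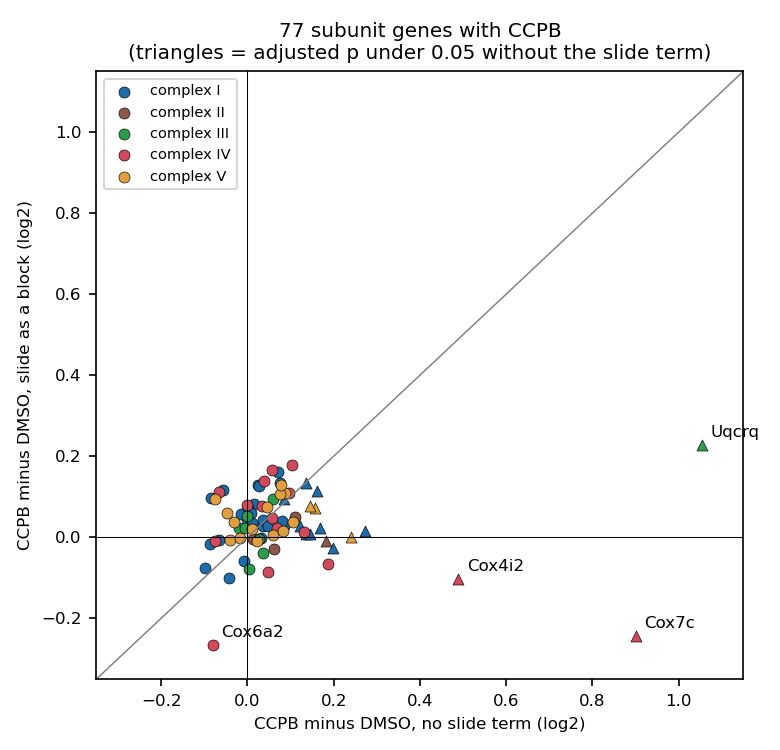
Each point is 1 of the 77 subunit genes, with the CCPB minus DMSO log2 difference without a slide term on the horizontal axis and with the slide block on the vertical axis, coloured by complex. Triangles are the 16 genes called without the slide term, and points on the grey diagonal would be unchanged. Uqcrq moves from 1.05 to 0.23, and Cox7c and Cox4i2 fall below 0.

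The 3 compounds had the same dose and time and were compared in 3 pairs. Triclosan and diclosan, which differ by 1 chlorine atom, gave 0 member calls in either direction, where 0% of all genes were called, and 1 member had an unadjusted p under 0.05, where 6.83% of all genes did (limma). With the slide block 0 members were called, where 0.00491% of all genes were, and 1 (Ndufs7, -0.098) had an unadjusted p under 0.05, where 7.56% of all genes did. For 73 of 77 members the interval of their difference lay within a 1.2-fold change and for 74 within 1.5-fold. The widest gap was that of Cox8b, a muscle isoform near the dim end of the array, which was 0.38 higher with triclosan (interval 0.053 to 0.70, limma adjusted p = 0.675), or 0.34 with the slide block. Cox8b read -4.61, -4.39 and -4.48 with triclosan and -4.57, -5.10 and -4.94 with diclosan, so the groups overlapped.

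Triclosan and CCPB, which differ by the hydroxyl group and by chlorination, gave 0 members higher and 10 lower with triclosan (13% of members, where 20.5% of all genes were called, 9.48% higher and 11% lower). Among them were Atp5f1e, Cox4i2, Cox6b2, Cox7c, Ndufab1, Ndufb5, Ndufs5, Ndufs8 and Uqcrq. The largest was Uqcrq at -1.03 (interval -1.44 to -0.63, limma adjusted p = 0.00528), which was -0.21 with the slide block (adjusted p = 0.330). With the slide block 0 members were called, where 1.41% of all genes were, and 3 members had an unadjusted p under 0.05, where 15.2% of all genes did. With triclosan replicate 1 left out 1 member was higher and 7 were lower. With triclosan replicate 2 or 3 left out the count was 3 and 3, and with CCPB replicate 1, 2 or 3 left out it was 4, 2 and 2.

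Diclosan and CCPB, which differ by the hydroxyl group and by the position of a chlorine atom, gave 1 member higher and 1 lower with diclosan (2.6% of members, where 14.4% of all genes were called, 8.1% higher and 6.27% lower). Cox6a2 was 0.30 higher (interval 0.11 to 0.49, limma adjusted p = 0.0415), with values of 2.60, 2.64 and 2.81 for diclosan and 2.32, 2.40 and 2.44 for CCPB. The groups did not overlap, and within slide 2 the diclosan array was also above the CCPB arrays. With the slide block the difference was 0.42 (adjusted p = 0.0636). Uqcrq differed by -0.81 (limma adjusted p = 0.0169), or -0.26 with the slide block (adjusted p = 0.0823), where 0 members and 4.95% of all genes were called, and where 3 members and 19.1% of all genes had an unadjusted p under 0.05. The counts turned on diclosan replicate 3: without it, when slide and compound cannot be told apart, 2 members were higher and 14 lower, where 26.7% of all genes were called. With diclosan replicate 1 or 2 left out the total was 0 and 0, and with CCPB replicate 1, 2 or 3 left out it was 1, 0 and 1.

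Against DMSO, Cox4i2 with CCPB was the only call among the tissue isoforms of complex IV, so no pair could be called in opposite directions. Cox4i1, the common isoform, differed from DMSO by -0.017 with triclosan, 0.018 with diclosan and 0.096 with CCPB (limma adjusted p = 0.0959 for CCPB). Cox6a1, the liver form, differed by -0.011, -0.0042 and -0.066 in the same order, and its muscle counterpart Cox6a2 by 0.15, 0.22 and -0.080. Cox6b1 differed by -0.074, 0.028 and 0.048, and the testis form Cox6b2 by -0.088, 0.011 and 0.19. Cox7a2 differed by -0.025, -0.0092 and 0.038, and Cox7a2l, which helps join complexes III and IV, by -0.0083, 0.010 and -0.076. Cox8a differed by -0.0086, 0.038 and 0.13, and Ndufa4, now placed in complex IV, by 0.012, -0.011 and 0.033. The CCPB differences with the slide block were 0.11 for Cox4i1, 0.11 for Cox6a1, -0.27 for Cox6a2 (interval -0.58 to 0.048), -0.086 for Cox6b1, -0.065 for Cox6b2, 0.14 for Cox7a2, -0.0099 for Cox7a2l, 0.014 for Cox8a and 0.077 for Ndufa4. That term turned the direction of Cox6a1, Cox6b1 and Cox6b2. Apart from Cox4i2, none of these isoforms was called against DMSO, and Cox7a1 had no named probe and was not analysed here.

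Genes that build and feed the chain were called in either direction at a share near that of all genes, but most CCPB calls were higher. Of 116 listed genes (electron carriers, assembly factors of each complex, regulators of mitochondrial biogenesis, carriers, tricarboxylic acid cycle enzymes and mitochondrial chaperones and proteases), 100 were tested. With triclosan and with diclosan 0 of the 100 were called, where 0.0639% and 0.00982% of all genes were. With CCPB 26 were higher and 5 lower (31%, beside the 28.3% of all genes), with a median of 0.056. By direction, 14.3% of all genes were called higher and 14% lower. With the slide block 4 were called (4%, beside 3.46% of all genes): Bcs1l, Lyrm7 and Slc25a20 higher and Sqor lower. Of these, Slc25a20 was not called without the block. It read 3.02, 2.993 and 2.945 with DMSO, 3.015, 3.026 and 2.805 with diclosan, and 3.088, 3.049 and 3.017 with CCPB. The low diclosan array, replicate 3, is the one that sets the slide term.

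Complex III assembly factors had 4 of 6 genes higher with CCPB (Bcs1l, Lyrm7, Ttc19 and Uqcc1) and 1 lower (Uqcc3), where 14.3% of all genes were higher and 14% lower. Bcs1l and Lyrm7 were also called with the slide block. Lyrm7, a chaperone of the Rieske protein, read 0.71, 0.57 and 0.65 with DMSO, 0.81, 0.78 and 0.86 with diclosan, and 1.11, 1.06 and 1.05 with CCPB. The CCPB arrays were above all others, and diclosan replicate 3 stayed near its group. The difference was 0.43 (limma adjusted p = 0.000127), and 0.37 with the slide block (adjusted p = 0.0307). Bcs1l, which inserts the Rieske protein, differed by 0.35 (adjusted p = 0.000466), and by 0.35 with the slide block (adjusted p = 0.0458). Their client Uqcrfs1 differed by -0.018.

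Among the electron carriers, 4 of 8 were higher with CCPB (Etfa, Etfb, Etfdh and Gpd2) and 1 was lower, where 14.3% of all genes were higher and 14% lower. All 4 higher calls were lost with the slide block. The lower gene was Sqor, which passes electrons from sulfide to ubiquinone. Sqor read 5.41, 5.33 and 5.38 with DMSO, 5.28, 5.29 and 5.33 with triclosan, 5.29, 5.30 and 5.31 with diclosan, and 4.97, 5.01 and 5.09 with CCPB. The CCPB arrays were below all others, and Sqor fell by 0.35 (limma adjusted p = 0.000243), or by 0.37 with the slide block (adjusted p = 0.0260). Cyc1, the cytochrome c1 of complex III, and Cycs, the mobile cytochrome c, differed by -0.053 and 0.13 with CCPB (0.11 and 0.042 with the slide block) and were not called.

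Of 16 regulators of mitochondrial biogenesis, 2 were higher with CCPB (Gabpb1 at 0.21 and Polg2 at 0.33) and 1 was lower, a smaller share than the 28.3% of all genes called. None of the 16 was called with the slide block, with Gabpb1 at 0.17 (limma adjusted p = 0.330) and Polg2 at 0.25 (limma adjusted p = 0.244). Nrf1, a transcription factor for many subunit genes, fell by 0.22 (limma adjusted p = 0.0344), and its difference was -0.082 with the slide block. The coactivators Ppargc1a and Ppargc1b differed by -0.22 and -0.21, Esrra by -0.075, Gabpa by 0.032 and Tfam, which packages mitochondrial DNA, by 0.11, with none called. The same 5 values were -0.029, -0.15, -0.073, -0.027 and -0.0046 with the slide block. With triclosan the values were -0.12 for Ppargc1a, 0.10 for Nrf1, 0.14 for Gabpa and 0.036 for Tfam, with none called. Ucp2, an uncoupling protein, differed by -0.13 with triclosan, -0.30 with diclosan and -0.19 with CCPB (-0.076 with the slide block), with none called.

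Lonp1, a protease of the mitochondrial matrix, was the 1 listed gene called with triclosan under the slide block. It read 4.57, 4.65 and 4.67 with DMSO, 4.92, 4.90 and 4.87 with triclosan, 4.79, 4.79 and 4.66 with diclosan, and 4.61, 4.68 and 4.62 with CCPB. The triclosan arrays were above all others. The difference was 0.27 in both fits, with a limma adjusted p of 0.0749 without the slide block and 0.0430 with it. With CCPB, 5 of 9 genes of the mitochondrial unfolded protein response were higher (Clpx, Hspa9, Hspd1, Hspe1 and Yme1l1) and 1 lower (Atf5 at -0.32, or -0.066 with the slide block), where 14.3% of all genes were higher and 14% lower, and 0 were called with the slide block.

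All 8 of 8 hepatocyte markers passed the filter, with a summed linear level of 2094 to 2259 times the 75th percentile over the 12 arrays. Of these, 2 (Apoa1 and Hnf4a) were called higher with CCPB, where 14.3% of all genes were, and 0 with the slide block. Markers of other liver cells were also above background: 4 of 8 for macrophages, 6 of 8 for stellate cells and fibroblasts, 3 of 8 for endothelial cells and 3 of 7 for cholangiocytes. Their sums are set between arrays only, not between lists. The stellate, endothelial and cholangiocyte sums mostly follow Tagln, Vwf and Epcam, the brightest of each list. With DMSO, Tagln read 3.53 to 3.74 and the next stellate marker, Col1a2, 0.55 to 1.03. Vwf read 2.969 to 3.055 and Cdh5 -3.11 to -2.93, and Epcam read 1.249 to 1.345 and Sox9 -1.57 to -1.38. The macrophage sum was 0.72 to 1.0 with DMSO, 0.77 to 1.03 with triclosan, 1.05 to 1.2 with diclosan and 0.93 to 1.05 with CCPB, so the diclosan arrays lay above the DMSO arrays, with 0 markers called. The stellate sum was 14.1 to 15.3 with DMSO, 12.7 to 13.7 with triclosan, 12.8 to 14.8 with diclosan and 9.07 to 10.1 with CCPB. Within that list Tagln fell by 0.72 with CCPB and by 0.59 with the slide block (limma adjusted p = 0.0371 with the block), whereas Acta2 was called higher at 0.42, or 0.29 and not called with the block. The endothelial sum was 8.0 to 8.49 with DMSO, 7.44 to 8.0 with triclosan, 7.92 to 9.58 with diclosan and 9.35 to 9.67 with CCPB. Its called gene, Vwf, differed by 0.21 (-0.024 with the slide block), and diclosan replicate 3, at 3.24, lay among the CCPB arrays. The cholangiocyte sum was 2.78 to 2.97 with DMSO, 2.78 to 3.24 with triclosan, 2.79 to 3.06 with diclosan and 3.51 to 3.57 with CCPB, with Epcam and Sox9 called higher and 0 called with the slide block. The part of these markers in the subunit calls was not tested.

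Promoter sequence is a property that the choice by symbol did not use. RefSeq promoters (build GRCr8, 250 bases before to 50 after the start site) were found for 68 of the 77 genes and searched on both strands for the letters of 3 factors known at such genes. The NRF1 motif, a GC-rich palindrome with 1 open base whose matches are in capitals below, stood in 13 of 68 (19.1%), against 9.59% of promoters of all tested genes and 4.25% of all promoters in the table. The ETS letters CCGGAAGT, which GABP can bind, stood in 8 of 68 (11.8%, against 8.34% and 3.81%), and the YY1 letters AAGATGGCG in 8 of 68 (11.8%, against 3.51% and 1.73%). No match of 1 motif overlapped a match of another, 28 of 68 members held at least 1 (41.2%, against 19.5% and 9.03%), so that most held none, and the 13 promoters of complex IV members held 0 NRF1 matches. These shares are descriptions with no test, and a match is a run of letters, not a measured site.

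The windows below run from 120 bases before to 30 bases after the start site, with matches in capitals. Sdha (chr1:30764433-30764582, plus strand) is shown because it had the most NRF1 matches, beginning 89, 46 and 1 bases before the start. Uqcrc1 (chr8:118468103-118468252, plus strand), a core subunit of complex III, is shown for an NRF1 match and a YY1 match in 1 promoter. Uqcrq (chr10:38089949-38090098, minus strand) is shown because it had the largest CCPB difference, and it has an ETS match 22 bases before the start.
Sdha: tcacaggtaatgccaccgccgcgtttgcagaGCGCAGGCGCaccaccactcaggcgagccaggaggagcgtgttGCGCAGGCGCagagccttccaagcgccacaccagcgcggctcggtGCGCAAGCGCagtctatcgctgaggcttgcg
Uqcrc1: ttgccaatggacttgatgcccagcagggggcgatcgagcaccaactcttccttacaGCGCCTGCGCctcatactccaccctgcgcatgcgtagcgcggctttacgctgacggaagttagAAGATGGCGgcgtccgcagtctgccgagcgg
Uqcrq: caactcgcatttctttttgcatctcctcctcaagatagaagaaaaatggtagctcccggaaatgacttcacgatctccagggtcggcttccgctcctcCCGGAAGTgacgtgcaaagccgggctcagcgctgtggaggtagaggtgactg
The genes with these windows did not move together: with CCPB, Sdha differed by 0.014, Uqcrc1 by -0.0018 and Uqcrq by 1.05 (0.23 with the slide block).

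Near-identical copies limit the reading of single probes. RefSeq names 92 pseudogenes after 39 of the 77 members, 3 of them after Cox7c, 2 after Ndufab1 and 1 after Sdhc, and 0 after Uqcrq or Cox4i2. Probe sequences were not used here, so cross-hybridisation with these copies was not tested.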

How the data were processed

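RNA of 12 cultures was amplified to Cy3 cRNA (Low Input Quick Amp kit), per the labels' protocols. Scanner output deposited by the authors gives spot intensity from Agilent Feature Extraction 10.7.1.1, per the file headers, background-subtracted and not scaled between arrays. A value table deposited by the authors, with linear signal scaled so that each array's 75th percentile is near 1, was an alternative. No column belonged to another sample (0). Here non-uniform spots were left out, spots of a probe were averaged as log2 values and the 75th percentile of each array was subtracted. Probes well above background on all 3 arrays of a group were kept (24254 of 45598), the brightest per gene. Symbols came from RefSeq (21211 probes named), and of 20359 tested genes 10681 had one.

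Groups were taken from the labels. All arrays were fitted by group with limma 3.58.1 in R 4.3.3, two-sided, with 95% intervals unadjusted. Precision is limited by having 3 arrays per group. Alternatives were other normalizations, filters, probe rules and sources, slide and replicate blocks, fits of fewer arrays, and each array left out. The planned normexp used the median spot signal, since the files held no mean signal, with an offset of 50. That setting and leaving out population outlier spots were added after the data were seen. The fit was also run on simulated data with no slide shift, so that run does not bear on the slide.

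Members and lists were chosen with earlier results of these data known. Named members were the 3 with the smallest p per complex and compound against DMSO, all of complex II, tissue isoforms, and the largest passing rise and fall between compounds. Outside the members, regulators and the 3 smallest p per list for CCPB were eligible. Other genes printed (Atp5f1b, Ndufc2, Uqcrc1, Uqcrfs1, Ndufb9, Ndufs7, Lonp1, the markers Tagln, Acta2, Vwf, Epcam and Sox9, and names in counts) were chosen after their values were seen. Values of 1 member, included in the counts, are not reported here.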

Additional observations from a re-analysis of the deposited data

How the results depend on the processing

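Member calls were 0 under every setting run for triclosan against DMSO, diclosan against DMSO and triclosan against diclosan. For CCPB against DMSO the 16 calls became 4 with median centring, 2 without the filter on dim probes, and 0 with the slide block or with replicate and slide blocks together. Leaving out 1 array gave 5 to 8. The 10 of triclosan against CCPB became 5, 1, 0 and 0 under those 4 settings, and 2 to 8 with 1 array left out. The 2 of diclosan against CCPB became 5 with normexp, 0 without the filter, with the slide block, with both blocks, in the compared groups alone and within slide 2, and 0 to 16 with 1 array left out. Samples with the same replicate number did not deviate together (18 pairs, correlation -0.17 to 0.12), and the replicate block gave 17, 8 and 2 calls for these comparisons. The slide block rests on 1 array of slide 2 outside the CCPB group, so it is imprecise. Quantile normalization gave 11 members higher and 2 lower for CCPB against DMSO, and 2 higher and 6 lower for triclosan against CCPB. The mean of all kept probes gave 17 higher and 2 lower for CCPB against DMSO. For triclosan against CCPB, normexp gave 1 higher and 14 lower, and keeping only probes above background on all 12 arrays gave 12 lower. Directions turned with the slide block and with both blocks for Cox4i2 (CCPB minus DMSO -0.10 and -0.16, triclosan minus CCPB 0.087 and 0.15) and Cox7c (-0.24 and -0.33, then 0.22 and 0.31), with the slide block for Sdhc (-0.0098) and Ndufc2 (-0.026, as given above), and with both blocks for Cox6b2 (triclosan minus CCPB 0.073). The mean of both probes turned Ndufab1 (-0.44 for CCPB minus DMSO, 0.21 and 0.24 for triclosan and diclosan minus CCPB), where the dimmer probe was near background with CCPB. The cause of these changes was not tested. Of 4256 checks of genes named by rule, 4063 kept their side of the threshold, where differences never called could change sign. In the same direction, 143 fell short of it and 37 newly passed it.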
